A study of Mus musculus with 32 samples.

Results

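The Dlk1-Meg3 locus is an imprinted domain of mouse chromosome 12, and 4 of its transcripts are described here: Dlk1, Meg3, Rian and Mirg, which are 4 of the 55492 rows of the deposited expression table. They were taken by symbol, and they were selected on their measured FPKM in all 32 libraries, Dlk1 for its large difference between lines on day 6. Their levels and differences are therefore descriptions, and no test is given for them. In an imprinted domain a gene is read from the chromosome of 1 parent. At this locus Dlk1, Rtl1 and Dio3 are the protein-coding genes, expressed mainly from the paternal chromosome, while Meg3, Rian and Mirg are noncoding RNAs of the maternal chromosome, whose introns and exons carry snoRNAs and microRNAs. A methylated control region between Dlk1 and Meg3 sets which side is read, and in stem cells the Meg3 side is known as a marker of intact imprinting. No allele-specific values were analysed here, so which parental copy gave the reads was not tested.

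The libraries were made from polyadenylated RNA, at day 0 from mouse embryonic stem cells and at days 2, 4 and 6 from retinal organoids. WT is the Rx:GFP reporter line. KO is the Mettl3 knockout, Mettl3 encoding the enzyme subunit that places the N6-methyladenosine mark on RNA. The other 2 groups are the Mettl3 KO carrying an overexpressed METTL3 fused to a domain named GRBD, without dexamethasone (no Dex, described by the submitters as cytosolic) and with 10 µM dexamethasone (Dex, described as nuclear). The fusion groups thus share the Mettl3 knockout with KO, and organoid medium of all lines held AGN at 0.1 µM. No WT or KO library was labelled as given Dex. A difference due to Dex itself and one due to the location of the fusion therefore cannot be told apart. Each of the 16 groups had 2 libraries, all with the same batch date. The treatment text lists Dex for 2, 4 and 6 days, yet day 0 libraries also carry a Dex label, which was followed. Whether a line is a single clone was not given, and the labels speak of separate library preparations rather than separate cultures, so p-values may measure technical spread only.

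Values are FPKM, fragments per kilobase of transcript and per mega of mapped fragments, which allows levels to be compared between genes. The estimated depth was 28.2 M to 54.0 M fragments a library (M, mega; median 37.7 M), at which 3 fragments on a 2 kb transcript correspond to 0.032 to 0.063 FPKM, counting error only. Mettl3 mRNA, the check of the knockout, stood at 35.11 and 36.33 FPKM in WT and at 37.32 and 37.86 FPKM in KO on day 6, a log2 difference of 0.07 ± 0.06 (SE; limma adjusted p = 0.325). On day 0 it was higher in KO by 0.30 ± 0.06 (limma adjusted p = 0.000417), and on days 2 and 4 the differences of -0.03 and 0.12 did not pass (adjusted p = 0.713 and 0.0904). The test thus called a lower mRNA level in the libraries labelled KO on none of the days, and whether the reads cross the edited part was not tested. KO below means the libraries labelled KO. Against the organoid label, the summed level of 6 eye field markers (Rax, Six3, Six6, Lhx2, Pax6, Mitf) on day 6 was 652.71 to 686.4 FPKM in WT, 117.83 to 119.23 in KO, 183.23 to 186.61 without Dex and 423.0 to 423.35 with Dex. In KO, Pax6 alone gave 111.7 FPKM of that sum and 2 of the 6 markers reached 1 FPKM.

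On the GRCm38 assembly the locus runs from Dlk1 to Dio3, chromosome 12 from 109452823 to 110281097, or 828.3 kb. Dlk1 lies at 109452823 to 109463336, Meg3 at 109541001 to 109571726, Rian at 109603940 to 109661716 and Mirg at 109729764 to 109749460, all 4 on the plus strand. Rtl1 lies between Meg3 and Rian on the minus strand, at 109589193 to 109600330. The table holds 116 rows in the interval, of which 101 were listed at 0 in every library and 9 reached 1 FPKM in at least 2 libraries. Those 9 are the 4 transcripts, Rtl1, Dio3, its divergent transcript Dio3os, B830012L14Rik and Gm3379. The 90 small RNA rows, 67 microRNAs and 23 snoRNAs, were all listed at 0, which says nothing about them because they are shorter than the sequenced fragments.

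The sequences before the starts of Dlk1 and Meg3 are shown because these neighbouring promoters went with very different expression patterns. Both are the 250 bases upstream of the start in RefSeq (GRCm38.p6, plus strand), with capitals marking a match to 1 of the motifs searched on both strands: TGACGTCA, the cAMP response element; TATAAA, the TATA box; GGGCGG, the GC box; and TGCCGC, the hexamer bound by ZFP57, a protein that keeps imprints. The Dlk1 window is chr12:109452573-109452822 and the Meg3 window chr12:109540746-109540995.
Dlk1: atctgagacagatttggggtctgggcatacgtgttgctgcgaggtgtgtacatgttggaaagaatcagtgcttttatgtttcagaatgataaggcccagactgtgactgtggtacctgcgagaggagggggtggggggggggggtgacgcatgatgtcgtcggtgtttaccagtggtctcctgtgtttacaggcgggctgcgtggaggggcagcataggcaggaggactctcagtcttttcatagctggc
Meg3: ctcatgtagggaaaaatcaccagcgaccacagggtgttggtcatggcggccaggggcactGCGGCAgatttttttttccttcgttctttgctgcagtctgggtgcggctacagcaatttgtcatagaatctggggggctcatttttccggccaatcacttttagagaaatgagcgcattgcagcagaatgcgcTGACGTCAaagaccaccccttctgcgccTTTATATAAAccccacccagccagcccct
The Dlk1 window held no match and 8 CG pairs. In the Meg3 window the cAMP response element lay at bases -57 to -50 from the start, TATAAA at -25 to -20 on the plus strand overlapping a match at -29 to -24 on the minus strand, and TGCCGC at -190 to -185 on the minus strand, with 10 CG pairs. Of the 32851 windows of the same length in the table, 1.5% held TGACGTCA, 12.4% TATAAA, 32.7% GGGCGG and 8.7% TGCCGC, and the median window held 6 CG pairs. The windows before a second RefSeq start of Meg3 and before the RefSeq start of Rian each held none of the 4 motifs and 0 CG pairs. That of Mirg held none of the motifs and 10 CG pairs. It lies at 109734731 to 109734980, within the Mirg interval given above and not before its start there. That of Dio3 held 1 match to TATAAA, 4 to GGGCGG and 21 CG pairs. Whether any match bears on the expression patterns was not tested.

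The noncoding side of the locus is known as a host of microRNAs. RefSeq places 58 hairpins and 113 mature microRNAs in the interval, with 104 distinct seeds, the bases 2 to 8 that pair with targets. Of the hairpins the table lists, 1 lies within Meg3, 3 within Rian and 14 within Mirg; miR-1906, also within Meg3, is listed as a mature form only. Below are 1 microRNA within Meg3, 1 that lies opposite Rtl1 and so is complementary to its transcript, 1 within Mirg, and 1 of the 9 sets that share a seed, with the seed in capitals.
miR-770-5p: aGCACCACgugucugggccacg
miR-127-3p: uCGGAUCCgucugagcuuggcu
miR-410-3p: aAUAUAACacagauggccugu
miR-379-3p: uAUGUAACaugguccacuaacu
miR-411-3p: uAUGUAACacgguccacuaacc
miR-379-3p and miR-411-3p share the seed AUGUAAC and lie between Rian and Mirg. None of these mature RNAs was measured, so the levels of Meg3, Rian and Mirg below are those of polyadenylated host transcripts.

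Dlk1, a transmembrane and secreted relative of the Notch ligands that is known to keep progenitors undifferentiated, was high in 1 of the 16 groups. In WT it stood at 1.94 and 2.35 FPKM on day 0, 2.87 and 2.58 on day 2, 3.40 and 3.62 on day 4, and 294.53 and 283.95 on day 6. The day 6 mean was 82.4-fold the day 4 mean, so nearly all of the WT level appeared within the last interval sampled. In KO the libraries held 3.07 and 3.65 FPKM on day 0, 9.34 and 8.63 on day 2, 4.00 and 4.42 on day 4, and 1.77 and 1.62 on day 6. The fusion line without Dex held 4.47 and 5.44, then 4.73 and 5.50, then 4.27 and 4.17, and on day 6 1.75 and 1.63 FPKM. With Dex the values were 3.06 and 3.79, 3.80 and 2.90, 2.78 and 1.94, and on day 6 3.59 and 3.36 FPKM. The 30 libraries other than WT day 6 ranged from 1.62 to 9.34 FPKM with a median of 3.50, so neither WT day 6 library overlapped any other. In bulk RNA, more cells of a type and more RNA per cell cannot be told apart.

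**Figure D1:**
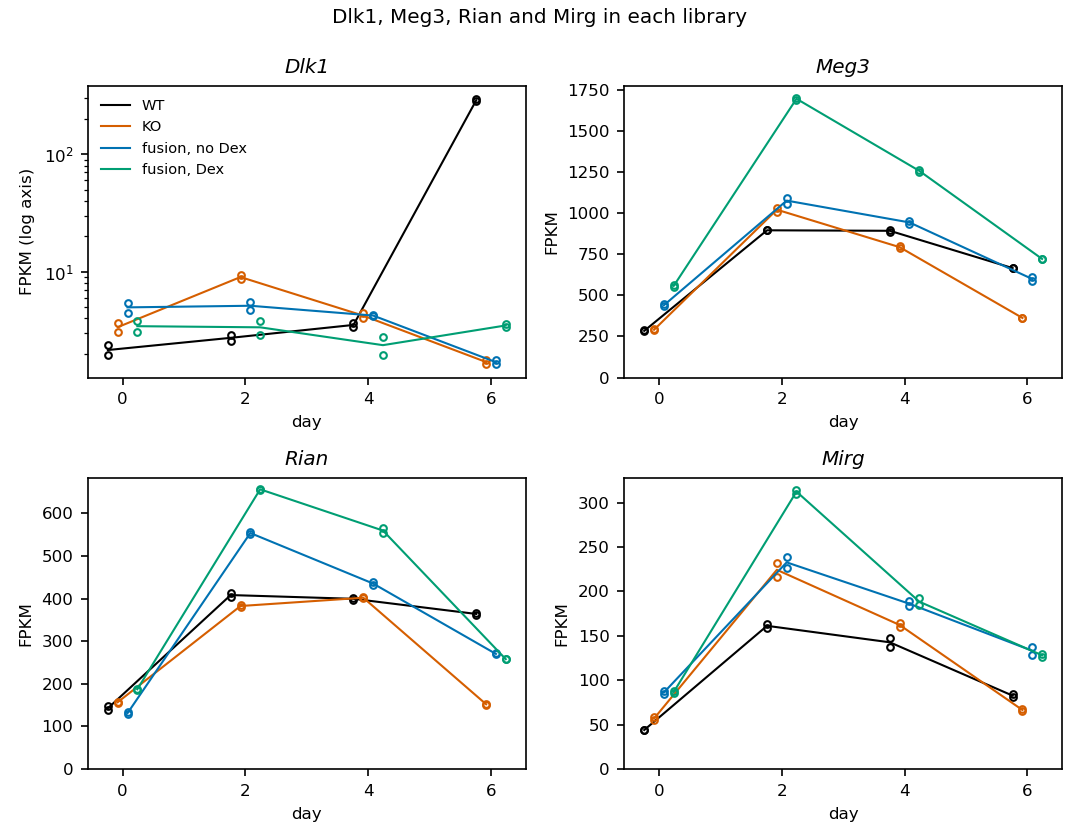
FPKM of Dlk1 (log axis), Meg3, Rian and Mirg (linear axes) by day for WT, KO and the fusion line without and with Dex; circles are single libraries, lines join the means of 2 libraries, and lines are offset sideways. Dlk1 stands at 294.53 and 283.95 FPKM in WT on day 6 and at or below 9.34 elsewhere, while the 3 noncoding RNAs are above their day 0 level on day 2 in all 4 lines.

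On the log2(FPKM + 1) scale, the scale of every log2 difference here, KO minus WT for Dlk1 was 0.47 on day 0, 1.42 on day 2, 0.21 on day 4 and -6.75 on day 6, each ± 0.12 (SE, 2 libraries a group, spread pooled over 16 groups). As a ratio of mean FPKM, KO was 3.30-fold above WT on day 2 and 171-fold below it on day 6. At days 0, 2 and 4 both KO libraries lay above both WT libraries, and on day 6 both lay below. The fusion line without Dex differed from KO by 0.45 on day 0, -0.71 on day 2, 0.00 on day 4 and 0.00 on day 6, and at days 4 and 6 the 2 groups overlapped. Dex minus no Dex was -0.43 on day 0, -0.50 on day 2, -0.65 on day 4 and 0.73 on day 6. Dlk1 on day 6 was thus 2.06-fold higher with Dex than without, with no overlap, and still 83.2-fold below WT. Of the 15 pairs of groups next to each other in the order of Dlk1 means, 9 overlapped: KO on day 2 was second, and below it the order from 5.12 down to 1.69 FPKM is largely not resolved.

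Markers of cells that the cultures could hold were summed beside Dlk1. The summed level of 8 endoderm markers (Gata4, Gata6, Sox17, Foxa2, Afp, Ttr, Apoa1, Lama1) was 34.27 to 36.44 FPKM in WT on day 0, 37.04 to 37.87 on day 2, 43.73 to 46.56 on day 4 and 88.76 to 91.9 on day 6, where all 8 reached 1 FPKM. In the other lines it was at most 12.6 FPKM at any day, and Afp was listed at 0 in all 3 on day 6. Lama1 was the largest part of the WT sum, at 19.8 FPKM on day 0 and 40.64 on day 6. On day 6 Lama1 stood at 3.99 FPKM in KO, 2.33 without Dex and 6.24 with Dex. At day 6 the 8 pluripotency markers summed to 444.39 to 458.81 FPKM in WT and to 237.46 to 273.87 in the other lines. Sox2 was the largest part of each sum, at 196.5 FPKM for WT, 210.87 for KO, 171.52 for no Dex and 172.88 for Dex. Sox2 was thus highest in KO, while each of the remaining markers of this list was highest in WT. Dppa5a stood at 142.83 FPKM in WT and at 30.13 to 49.06 elsewhere on that day. Markers of mesoderm and mesenchyme, tissues known to hold Dlk1, summed to 15.0 to 15.64 FPKM in WT and 25.45 to 32.81 in the other lines. Twist1 carried most of that gap, at 1.57 FPKM in WT and 20.1 in KO, while Col1a2 (7.14 against 1.53 FPKM) and Pdgfra (4.36 against 1.54 FPKM) were higher in WT. Neuron markers summed to 47.32 to 49.26 FPKM in WT, 305.79 to 309.68 in KO, 249.09 to 249.23 without Dex and 149.47 to 150.78 with Dex. Tubb3 alone gave 29.18, 266.15, 212.04 and 133.58 FPKM of these sums. In WT stem cells on day 0 the sum was 337.13 to 340.46 FPKM, above that of KO on day 6, so the sum alone does not mark neurons. The trophoblast markers did not follow Dlk1, at 25.89 to 27.82 FPKM in WT, 15.06 to 15.54 in KO, 25.27 to 26.53 without Dex and 32.44 to 34.99 with Dex. The eye field sum was highest in WT (above), though Pax6 was not, at 110 FPKM in WT against 154 without Dex, 151 with it and 112 in KO, nor was Mitf, at 5.75 FPKM in WT and 6.75 with Dex. The part of any of these cells in the Dlk1 level was not tested.

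Dio3 and Dio3os, at the far end of the locus, were also highest in WT on day 6. Dio3, the deiodinase that inactivates thyroid hormone, stood at 3.09 and 3.11 FPKM in WT on day 6 and at 0.13 to 1.0 in the other 30 libraries. By estimated depth these levels are 229.2 and 205.9 fragments against 10.0 to 94.2. Dio3os stood at 1.58 and 1.79 FPKM against 0 to 0.56. Both genes passed the filter on low values, at least 2 libraries at 1 FPKM, only through the WT day 6 libraries, so that a difference of that group was built into their choice and no test of it is given. As a description, KO minus WT on day 6 was -1.86 ± 0.08 (SE) for Dio3 and -1.37 ± 0.10 for Dio3os, with no overlap between the groups. As a ratio of mean FPKM, Dio3 in KO was 23.8-fold below WT.

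The WT difference of day 6 from day 4 was 1.67 for Dio3 and 1.38 for Dio3os, given without a test for the same reason. The change over the same days in KO, no Dex and Dex was -0.08, 0.04 and 0.01 for Dio3, and 0.05, 0.05 and 0.10 for Dio3os. In these groups Dio3 reached at most 0.32 FPKM and Dio3os at most 0.12. At such levels log2(FPKM + 1) leaves little room for a difference, so no test is given here either. Between Dex and no Dex on day 6 the differences were 0.02 for Dio3 and 0.03 for Dio3os, likewise without a test.

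**Figure D2:**
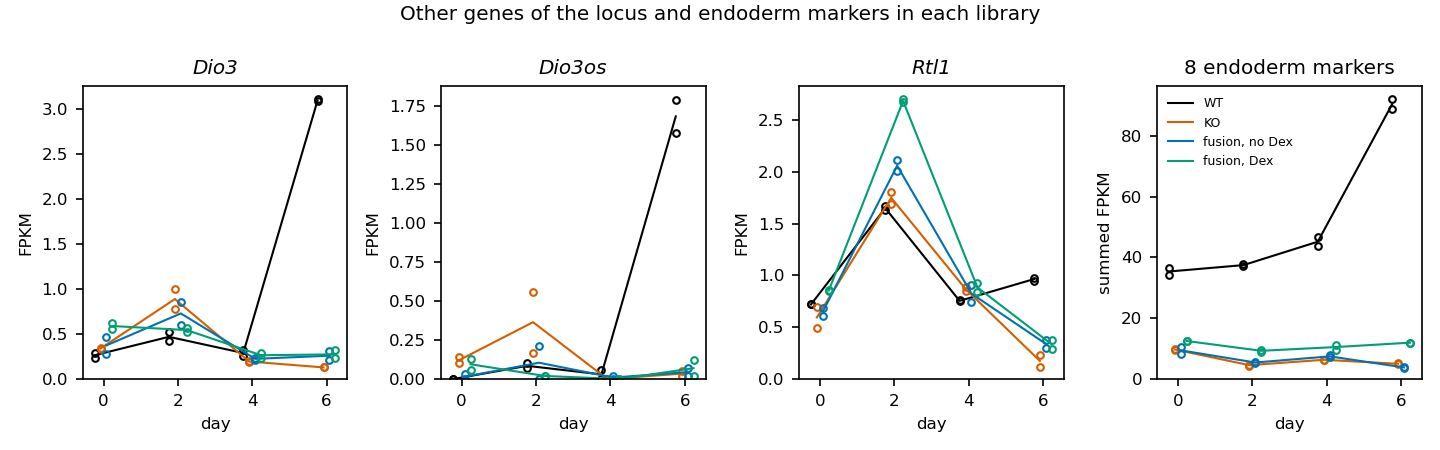
FPKM of Dio3, Dio3os and Rtl1 and the summed FPKM of 8 endoderm markers by day (linear axes); circles are single libraries (for the markers, the lowest and the highest library sum) and lines join their midpoints. Dio3 and Dio3os stand apart in WT on day 6, Rtl1 is highest on day 2 with Dex, and the endoderm sum is highest in WT at every day.

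Rtl1, a retrotransposon-derived gene known for its role in placental vessels, did not stand apart in WT on day 6 as Dlk1 did. Its 2 libraries stood at 0.98 and 0.95 FPKM in WT on day 6, within the range of 0.12 to 2.7 of the other libraries, and its highest values were 2.70 and 2.67 FPKM on day 2 with Dex. The transcript opposite Rtl1 carries microRNAs, and the strand setting of the counting is not given in the sources used here, so reads of the 2 strands cannot be told apart. From day 4 to day 6 Rtl1 fell by 0.67 in KO, and it fell by 0.50 with Dex and fell by 0.45 without it. In WT it rose by 0.16 (limma, adjusted p = 0.035; a difference of 0.10 with rescaled libraries), where 41.7% of the 16276 genes tested were called higher at an adjusted p under 0.05. The change was higher in WT than in KO by 0.84 (limma interaction, adjusted p = 4.81e-07), than without Dex by 0.61 (adjusted p = 2.32e-05) and than with Dex by 0.66 (adjusted p = 7.11e-06). Of all genes, 30.5%, 31.3% and 29.1% were called in that direction in the 3 interactions. At day 6 Rtl1 was lower in KO than in WT by a log2 difference of -0.74 ± 0.07 (limma, adjusted p = 5.84e-09), and Dex against no Dex gave -0.01 (adjusted p = 0.973). Both fusion groups held at most 0.38 FPKM there, where log2(FPKM + 1) leaves little room for a Dex difference. Fragment counts of Rtl1 were not estimated. As means, KO stood at 0.175 FPKM and WT at 0.965, so that KO was 5.51-fold below WT. Over all genes tested, 65.1% were called in KO against WT on day 6, 30.9% higher and 34.2% lower in KO, so a call by itself sets no gene apart. The lines also differed by chromosome. The median KO against WT difference on day 6 was 0.35 for 858 genes of chromosome 8, -0.05 for chromosome 12 and -0.03 for all genes. For chromosome 8 it was 0.005 on day 0, 0.24 on day 2 and 0.34 on day 4, and the cause was not tested. The remaining rows of the interval, B830012L14Rik and the gene model Gm3379, gave -0.16 (adjusted p = 0.0665) and -0.04 (adjusted p = 0.928) in KO against WT and did not pass.

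Meg3, the first noncoding RNA of the maternal side, was abundant in every library, from 280.87 to 1701.4 FPKM. WT held 280.87 and 286.93 FPKM on day 0, 894.14 and 896.42 on day 2, 887.7 and 896.92 on day 4, and 665.22 and 665.78 on day 6. KO held 286.57 and 294.57, 1032.11 and 1009.07, 785.94 and 799.69, and on day 6 360.6 and 364.34 FPKM. KO therefore overlapped WT on day 0, stood above it on day 2 and stood below it without overlap at days 4 and 6. Without Dex the values were 445.78 and 433.45, 1057.84 and 1093.76, 951.29 and 935.02, and 586.36 and 612.16 FPKM. With Dex they were 552.04 and 562.31, 1688.07 and 1701.4, 1263.65 and 1249.6, and 720.42 and 722.03 FPKM. The Dex libraries lay above those without Dex at each of the 4 days, day 0 included.

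For Meg3 the log2 difference of KO from WT was 0.03 on day 0, 0.19 on day 2, -0.17 on day 4 and -0.88 on day 6, each ± 0.02 (SE). That of the fusion line without Dex from KO was 0.60, 0.08, 0.25 and 0.72 at the same days. Dex minus no Dex was 0.34, 0.66, 0.41 and 0.27. In ratios of means, KO was 1.84-fold below WT on day 6, the fusion line without Dex 1.65-fold above KO and Dex 1.20-fold above no Dex. Mettl3 itself, which in the fusion line includes any reads of the transgene, was higher without Dex than in KO at each day (log2 differences of 0.68, 0.46, 0.49 and 0.36, limma adjusted p of 2.5e-08, 1.04e-05, 9.28e-06 and 7.48e-05). Between Dex and no Dex the Mettl3 difference passed at none of the 4 days. In the order of Meg3 means, 2 of the 15 neighbouring pairs of groups overlapped, WT days 2 and 4, and KO and WT on day 0.

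Rian, which hosts the box C/D snoRNAs of the locus, had about the same course at a lower level. WT held 146.96 and 138.46 FPKM on day 0, 413.5 and 402.97 on day 2, 397.79 and 401.06 on day 4, and 361.35 and 366.44 on day 6. KO held 156.11 and 157.61, 385.16 and 379.92, 400.75 and 403.19, and on day 6 150.77 and 153.45 FPKM, back below its own day 0. The fusion line held 128.75 and 133.63, 556.1 and 551.43, 432.47 and 437.96, and 271.25 and 269.03 FPKM without Dex. It held 188.71 and 185.94, 657.57 and 654.96, 553.7 and 565.36, and 258.25 and 257.49 FPKM with Dex. At day 6 the order was WT, no Dex, Dex and KO, with no overlap between them.

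The Rian difference of KO from WT was 0.14, -0.09, 0.01 and -1.25 at days 0, 2, 4 and 6, each ± 0.02 (SE). At day 4 the 2 groups overlapped, and that sign turned to -0.10 when libraries were rescaled by median-of-ratios factors. Without Dex minus KO was -0.26, 0.53, 0.11 and 0.83, and Dex minus no Dex was 0.51, 0.25, 0.36 and -0.07. At day 6 KO was 2.39-fold below WT and the fusion line without Dex 1.78-fold above KO.

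Mirg, the microRNA-bearing RNA at the far end of the maternal side, was the lowest of the 3. WT held 44.3 and 43.64 FPKM on day 0, 163.32 and 159.21 on day 2, 147.59 and 137.85 on day 4, and 84.53 and 80.8 on day 6. KO held 58.95 and 54.86, 232.35 and 216.3, 160.2 and 164.26, and 64.91 and 68.07 FPKM. KO was thus above WT without overlap up to day 4 and below it on day 6. The fusion line held 84.44 and 87.98, 226.43 and 238.99, 189.09 and 183.07, and 128.6 and 137.74 FPKM without Dex, and 85.55 and 87.85, 310.0 and 314.69, 192.42 and 184.47, and 126.73 and 129.53 FPKM with Dex. At day 6 both fusion groups stood above WT, and they overlapped each other.

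For Mirg the KO difference from WT was 0.36, 0.47, 0.18 and -0.31 at days 0, 2, 4 and 6, each ± 0.045 (SE). Without Dex minus KO was 0.59, 0.05, 0.20 and 0.99, the last a ratio of 2.00. Dex minus no Dex was 0.01, 0.42, 0.02 and -0.05, so that a difference without overlap was seen on day 2 alone, and the day 0 sign turned to -0.07 with rescaled libraries.

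**Figure D3:**
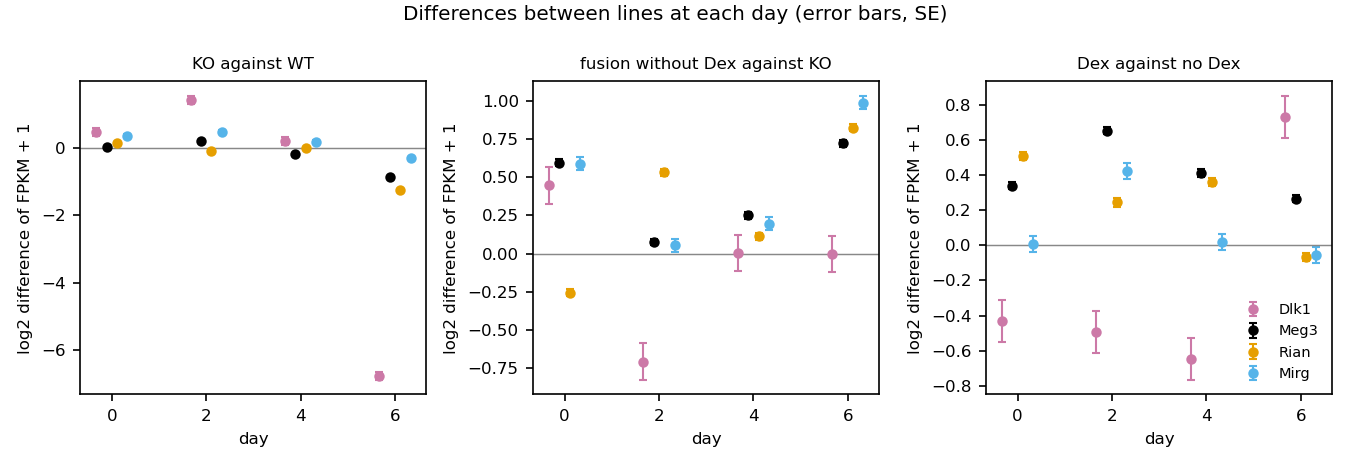
Difference of the group means of log2(FPKM + 1) by day for Dlk1, Meg3, Rian and Mirg, with bars of 1 SE, for KO against WT, the fusion line without Dex against KO, and Dex against no Dex; the vertical scales differ between panels. At day 6 all 4 are below 0 in KO against WT (Dlk1 at -6.75), and Meg3, Rian and Mirg but not Dlk1 are above 0 in the middle panel.

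The 3 noncoding RNAs followed each other over the 16 groups, which share their libraries and depth. On group means of log2(FPKM + 1), Pearson's r was 0.94 for Meg3 with Rian (Spearman's rho 0.94), 0.96 for Meg3 with Mirg (rho 0.96) and 0.89 for Rian with Mirg (rho 0.89), n = 16 in each. Without WT day 6 these were 0.95, 0.97 and 0.93. For Dlk1 with Meg3, r was 0.08 (rho 0.28), and 0.35 without WT day 6. For Dlk1 with Dio3 and with Dio3os, r was 0.94 and 0.97 but rho was 0.56 and 0.37, and without WT day 6 r was 0.67 and 0.63: the high r rests largely on 1 group. Rtl1 gave r = 0.68 with Meg3 (rho 0.75) and r = 0.17 with Dlk1.

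As ratios of mean FPKM, Meg3 was 86.5 to 532 times Dlk1 in 15 groups and 2.30 times Dlk1 in WT on day 6. The ratio of Meg3 to Rian stayed between 1.83, in WT on day 6, and 3.35, in the day 0 group without Dex. The ratio of Meg3 to Mirg stayed between 4.50, in the day 6 group without Dex, and 8.05, in WT on day 6. The ratio of Meg3 to Dlk1 thus had a far wider range than its ratios to Rian and Mirg.

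**Figure D4:**
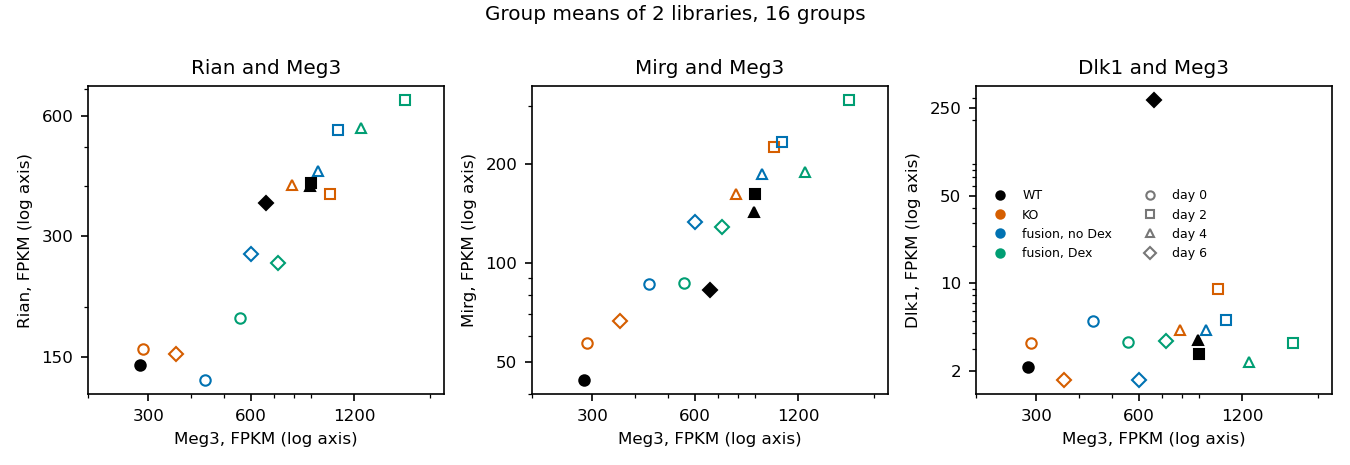
Group means (2 libraries each, both axes log) of Rian, Mirg and Dlk1 against Meg3, coloured by line and shaped by day, WT filled. Rian and Mirg lie along a band with Meg3, while Dlk1 does not and has 1 group, WT on day 6, at a mean of 289.24 FPKM.

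The genes whose 16 group means were most like those of Dlk1 by Pearson's r, out of 16275, were Dio3os (r = 0.97), the antisense transcript Vax2os (0.96), Npvf, which encodes a neuropeptide precursor (0.95), Gm27893 (0.95) and 3110039M20Rik (0.94). Dio3 was the seventh. These too were high in WT on day 6: Vax2os at 9.18 ± 0.51 FPKM (SD, n = 2) against at most 1.4 in another library, Npvf at 2.68 ± 0.66 against at most 0.05, and 3110039M20Rik at 3.31 ± 0.37 against at most 0.49. Gm27893 stood at 5.12 ± 2.46 FPKM and was listed at 0 in the other 30 libraries. Of these, Dio3os, Npvf, Gm27893 and 3110039M20Rik passed the filter only through WT on day 6. Without that group r was 0.63 for Dio3os, 0.76 for Vax2os, 0.14 for Npvf and 0.01 for 3110039M20Rik, and Gm27893 had none, so the likeness rests largely on 1 group. For Meg3 the nearest were Mirg (0.96) and Rian (0.94), followed by the glycolytic genes Eno1b (0.93) and Aldoa (0.92), with Gm27000 between them (0.92). Eno1b is a near copy of Eno1, so its reads are uncertain.

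Genes within 1 Mb on either side of the locus were compared to see whether its surroundings differed as well. Of 57 such rows 24 were tested. In KO against WT on day 6, 14 were called, 6 higher and 8 lower, with a median log2 difference of -0.06 against -0.03 over all genes. Amn, a partner of the vitamin B12 receptor, fell by 2.57 ± 0.15 from 6.71 FPKM to 0.3 (limma, adjusted p = 1.33e-11), and Gm19605 fell by 2.06 ± 0.26 (adjusted p = 8.26e-07). Mpc1-ps, a pseudogene whose reads are uncertain, fell by 0.72 (adjusted p = 0.0409). Begain, known from neuronal synapses, rose by 0.83 ± 0.10 to 13.55 FPKM (limma, adjusted p = 2.2e-07), Ankrd9 rose by 0.70 and Zfp839 by 0.60. At 14 of 24 the share called was below the 65.1% of all genes.

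Between Dex and no Dex on day 6, 42.7% of all genes were called, 23.8% higher and 19% lower with Dex. Among the flanking genes 12 of 24 were called, 9 higher and 3 lower, with a median of 0.10 against 0.01 over all genes. Without the second Dex library the count was 6. Dync1h1, the dynein motor heavy chain, rose by 0.63 ± 0.13 (limma, adjusted p = 0.000595), Amn by 0.59 (adjusted p = 0.0037) and Begain by 0.48 (adjusted p = 0.000398), while the chaperone Hsp90aa1 fell by 0.45 (adjusted p = 1.61e-07), Tecpr2 by 0.15 (adjusted p = 0.0137) and the transcription factor Yy1 by 0.14 (adjusted p = 0.00294).

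Regulators of imprints were read from a list of 20 genes for DNA methylation, its removal, and the zinc finger and chromatin proteins that act at imprinted regions. All 20 were tested, and in KO against WT on day 6, 17 were called, 6 higher and 11 lower, with a median of -0.34. Over all genes 65.1% were called, 30.9% higher and 34.2% lower, with a median of -0.03. The largest falls were in Dnmt3l, the cofactor of de novo methylation, from 33.33 ± 2.00 to 2.77 ± 0.25 FPKM (SD, n = 2; log2 difference of -3.19, limma adjusted p = 4.21e-19), in the de novo methyltransferase Dnmt3b (-1.11, adjusted p = 7.86e-18) and in Jarid2, a Polycomb cofactor (-0.71, adjusted p = 3.88e-11). The demethylating enzyme Tet3 rose by 0.65 (limma, adjusted p = 1.87e-10), Aff3 by 0.64 (adjusted p = 2.25e-08) and the histone methyltransferase Setdb1 by 0.54 (adjusted p = 6.4e-13). Between Dex and no Dex 15 were called, 4 higher and 11 lower, with a median of -0.11. Over all genes 42.7% were called, 23.8% higher and 19% lower, with a median of 0.01. Dnmt3l was higher with Dex, at 6.39 against 3.43 FPKM (0.74, limma adjusted p = 7.7e-09), Mbd3 by 0.34 (adjusted p = 0.00081) and Zfp57 by 0.25 (adjusted p = 1.28e-05), while Zfp445 fell by 0.58 (adjusted p = 7.37e-09), Aff3 by 0.47 (adjusted p = 4.69e-06) and the insulator protein gene Ctcf by 0.34 (adjusted p = 3.94e-09). In both comparisons the share of regulators called was above that of all genes, which is a description of a list chosen with earlier results known.

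Of 30 imprinted genes of other domains, 26 were tested, and 22 were called in KO against WT on day 6, 8 higher and 14 lower, beside 65.1% of all genes, with a median of -0.31. Peg10 fell from 92.78 to 11.99 FPKM (-2.85, limma adjusted p = 2.13e-23), Mest from 3474.14 to 824.92 FPKM (-2.07, adjusted p = 3.09e-16) and the cell cycle inhibitor Cdkn1c from 111.04 to 26.58 FPKM (-2.03, adjusted p = 3.63e-12). Igf2, a fetal growth factor, rose by 0.92 (limma, adjusted p = 1.84e-06), Ndn by 0.92 (adjusted p = 4.93e-12) and Kcnq1ot1 by 0.78 (adjusted p = 3.52e-12). Between Dex and no Dex 13 were called, 5 higher and 8 lower, a share near the 42.7% of all genes, with a median of 0.02. H19, a maternally expressed noncoding RNA, rose from 78.25 to 783.23 FPKM with Dex (3.31, limma adjusted p = 1.12e-15), Phlda2 by 0.77 (adjusted p = 3.46e-06) and Peg10 by 0.65 (adjusted p = 4.67e-13). Dcn stood at 0.39 FPKM with Dex and 1.38 without, and passed the filter only through the libraries without Dex on day 6. Its call is counted among the 8 lower, although the difference was built into its choice. Igf2 fell by 0.72 (limma, adjusted p = 8.74e-05) and Igf2r by 0.32 (adjusted p = 1.08e-05).

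Because Dlk1 belongs to the family of Notch ligands, 25 genes of that pathway were compared, of which 23 were tested. In KO against WT on day 6, 21 were called, 17 higher and 4 lower, beside 65.1% of all genes, with a median of 0.46. Among ligands and modifiers, Dll3 rose by 2.16 to 16.44 FPKM (limma, adjusted p = 3.98e-16) and Lfng by 2.18 to 84.5 FPKM (adjusted p = 4.99e-11), and the Notch antagonist Numb fell by 0.48 (adjusted p = 4.15e-05). The target genes went both ways: Hes5 rose from 14.53 to 145.76 FPKM (3.24, limma adjusted p = 4.27e-12), whereas Hes1 fell from 182.1 to 27.41 FPKM (-2.69, adjusted p = 1.93e-16) and Hey2 fell by 0.39 (adjusted p = 0.00113). The neuron marker sum, given above and mostly Tubb3, was higher in KO at the same day. The part of neurons in these differences was not tested. Between Dex and no Dex 13 were called, 5 higher and 8 lower, beside 42.7% of all genes, with a median of -0.11. Rfng rose by 0.68 (limma, adjusted p = 1.56e-10), the receptor Notch3 by 0.67 (adjusted p = 1.99e-05) and Hes1 by 0.62 (adjusted p = 1.67e-06), while Dll3 fell by 0.84 (adjusted p = 3.46e-09) and the ligand Jag1 fell by 0.46 (adjusted p = 0.00215). Heyl, at 0.46 FPKM with Dex and 1.11 without, passed the filter only through the libraries without Dex on day 6. Its call is counted among the 8 lower, although the difference was built into its choice.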

How the data were processed

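Polyadenylated RNA of 32 libraries was compared in 16 groups of 2, grouped by the labels. The deposited FPKM values were made by the authors; the submitters' processing notes name STAR, Cuffdiff and mm10, with versions, strand setting and annotation not given in the sources used here. Positions come from GENCODE M21 by gene ID (99.5% of rows matched). The 4 transcripts and all gene lists were chosen with earlier results of these data known. To estimate depth, low FPKM values were divided by the worth of 1 fragment, with 280 to 305 bases subtracted from transcript length; 78.0% to 86.1% came out whole (tolerance 0.2), where 40.0% would at random. Tests used limma 3.58.1 in R 4.3.3 on log2(FPKM + 1), with 16 group means and an intensity trend, two-sided, adjusted by Benjamini-Hochberg over 16276 genes with at least 2 libraries at 1 FPKM or more, and were checked on simulated data. Differences on this scale understate those of low genes. Named genes were the 4 transcripts, rows of the interval at 1 FPKM in at least 2 libraries, the 5 genes most like Dlk1 and Meg3, and the 3 largest called rises and falls of each list. Alternatives were another pseudocount, filters, rescaling, separate fits, a replicate block and leaving out each library. One item of the eye field marker list is not reported here and was left out of its sums.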

Additional observations from a re-analysis of the deposited data

Results flagged for a closer look

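Several differences between lines changed direction with the day, with both libraries of a group on one side of both others at each day named. These changes of direction were not tested, and the share of all genes with such a change was not computed. With rescaled libraries each difference kept its sign, but some came closer to none. Meg3 in KO against WT on day 2 became 0.07, and Rian without Dex against KO on day 0 became -0.12. Dlk1 in KO against WT was 1.42 on day 2 and -6.75 on day 6 (log2). In the fusion line without Dex against KO it was 0.45 on day 0 and -0.71 on day 2, and the Dex difference from no Dex was -0.65 on day 4 and 0.73 on day 6. Meg3 in KO against WT was 0.19 on day 2 and -0.88 on day 6, and Mirg 0.47 and -0.31 at the same days. Rian was 0.14 on day 0 and -1.25 on day 6 in KO against WT, -0.26 and 0.83 in the fusion line without Dex against KO, and 0.51 and -0.067 in Dex against no Dex.

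For Rtl1 the day 4 to day 6 difference was not the same in WT as in each of the other lines by limma's interaction test. The difference from KO, no Dex and Dex was 0.84, 0.61 and 0.66.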

How the results depend on the processing

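A pseudocount of 0.1 moved Dlk1 at day 6 to -7.33 in KO against WT and to 1.00 in Dex against no Dex. Rescaling by median-of-ratios factors moved KO against WT at day 6 to -0.84 for Meg3 and -1.22 for Rian. Leaving out each compared library gave, for the fusion line without Dex against KO, 0.69 to 0.75 for Meg3 and 0.94 to 1.04 for Mirg, and for Dex against no Dex 0.24 to 0.30 for Meg3 and -0.10 to -0.01 for Mirg (-0.005 at the upper end). The flanking genes called in KO against WT fell from 14 to 9 when a mean of 5 FPKM was required, fewer genes being tested. Those called in Dex against no Dex were 6 when the compared groups were fitted alone, and 6 to 12 with a library left out. Dlk1 in the fusion line without Dex against KO, -0.002 as reported, had no fixed direction: it was 0.005 with rescaling and -0.043 to 0.038 with a library left out. The other day 6 differences of the 4 transcripts kept their direction. They and the other list counts stayed within the replicate spread or within 1.5 times the reported count under the alternatives run for them. At other days, rescaling turned the sign of Rian in KO against WT on day 4 and of Mirg in Dex against no Dex on day 0. Same-numbered libraries did not deviate together (correlations of -0.09 to 0.13 over 120 pairs of groups), and with the replicate block the counts called were 14, 17, 23 and 21 in KO against WT, and 13, 15, 13 and 13 in Dex against no Dex, for flanking genes, imprint regulators, other imprinted genes and the Notch pathway. With 2 libraries a group, levels under 0.063 FPKM are not resolved at the shallowest depth. Dio3os lay at 0 to 0.56 FPKM outside WT on day 6, and fragment counts of Dio3os and of Rtl1 were not estimated.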
